A study of Mus musculus with 38 samples.

Results

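The baseline state of the mouse cortical collecting duct was described from saline-infused (vehicle) ducts alone, by setting the ATAC-seq signal of each peak against the RNA level of the gene that the authors' deposited table names with it. A gene was a member when it had a TPM in the vehicle RNA table and its symbol could be placed on a RefSeq gene. These were 4979 of the 5035 genes of that table, and 70738 of the 270806 peaks carried their names. Of these peaks, 5758 were annotated promoter-TSS and 60349 lay in introns or between genes, the class here named distal. No contrast with a treatment entered.

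The ducts came from wild-type C57BL/6 mice given a saline infusion for 5 days, the control arm of a study of excess vasopressin action, and the segments were microdissected from the kidney. RNA-seq held 4 vehicle libraries and ATAC-seq held 3. For ATAC-seq, which marks open chromatin by the insertions of the Tn5 transposase, each reaction pooled 3 ducts dissected by hand. The labels did not say that a library stood for 1 animal, so the spread between libraries may be technical, and the deposited ATAC-seq table gave 1 mean for the group, so the chromatin values carry no spread between replicates.

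The cortical collecting duct sets the final water, sodium and acid content of urine. Its principal cells take up water through aquaporins and sodium through the epithelial sodium channel, under vasopressin and aldosterone. Its intercalated cells, of type A and type B, move acid and base through a vacuolar proton pump and anion exchangers. Promoters of active genes are generally open, and cell-type genes often carry further open sites at a distance, many of which are enhancers.

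The transcriptome was that of a collecting duct with RNA of other segments in it. Listed genes took 860086 to 887933 TPM of each vehicle library, and the rank correlation between libraries over the 4979 genes ran between 0.692 and 0.965, lowest for libraries 3 and 4. Of 14 proximal tubule genes 8 were listed, and their summed TPM was 5420, 7562, 15674 and 768.4 in vehicle libraries 1 to 4. Of 9 genes of the thick ascending limb and distal convoluted tubule 3 were listed, with summed TPM of 1597, 1236, 551.2 and 807.0. Of 16 genes of endothelium, stroma, immune cells and podocytes 3 were listed, Cd74, Plvap and Emcn. In bulk ducts, fewer cells of a type and less RNA per cell cannot be told apart. The table lists only genes above 10 TPM in every one of its 8 libraries, 4 of which were from dDAVP-infused mice, so genes low in any of them are missing.

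The promoters that carry the contrast described below were those of 3 collecting duct genes, of a gene among those with the strongest promoter-TSS peaks and of a proximal tubule gene of high RNA level with no peak over its start. Each sequence is the RefSeq promoter window of 300 bases on GRCm38.p6 (mm10), 250 bases before to 50 after the transcription start, read 5′ to 3′ on the gene's strand, with every CG dinucleotide in capitals. Aqp2 encodes the vasopressin-regulated water channel, and its window was chr15:99578806-99579105 on the plus strand. Aqp3 encodes the basolateral water channel of the same cells, with its window at chr4:41098134-41098433 on the minus strand. Slc26a4 encodes pendrin, the anion exchanger of type B cells, with its window at chr12:31559935-31560234 on the minus strand. Atp1b1 encodes a beta subunit of the sodium pump, with its window at chr1:164458306-164458605 on the minus strand. Kap encodes an androgen-regulated protein of the proximal tubule, with its window at chr6:133853618-133853917 on the minus strand.
Aqp2: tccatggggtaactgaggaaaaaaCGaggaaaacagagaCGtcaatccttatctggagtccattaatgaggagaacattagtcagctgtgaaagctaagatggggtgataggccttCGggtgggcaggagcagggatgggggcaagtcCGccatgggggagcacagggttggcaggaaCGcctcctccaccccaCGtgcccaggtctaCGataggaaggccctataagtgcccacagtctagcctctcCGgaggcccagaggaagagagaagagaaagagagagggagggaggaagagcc
Aqp3: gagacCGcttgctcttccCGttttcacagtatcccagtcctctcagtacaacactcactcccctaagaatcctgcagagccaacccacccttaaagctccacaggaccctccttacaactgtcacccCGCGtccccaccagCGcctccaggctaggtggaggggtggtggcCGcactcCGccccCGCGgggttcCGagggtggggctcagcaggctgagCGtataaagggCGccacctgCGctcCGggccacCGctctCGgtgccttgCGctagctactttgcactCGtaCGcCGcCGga
Slc26a4: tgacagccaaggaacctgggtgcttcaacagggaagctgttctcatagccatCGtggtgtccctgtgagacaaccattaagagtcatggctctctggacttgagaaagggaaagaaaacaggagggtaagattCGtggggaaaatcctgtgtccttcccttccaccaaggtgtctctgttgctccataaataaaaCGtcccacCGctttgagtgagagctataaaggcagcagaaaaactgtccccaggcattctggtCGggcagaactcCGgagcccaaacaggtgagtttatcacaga
Atp1b1: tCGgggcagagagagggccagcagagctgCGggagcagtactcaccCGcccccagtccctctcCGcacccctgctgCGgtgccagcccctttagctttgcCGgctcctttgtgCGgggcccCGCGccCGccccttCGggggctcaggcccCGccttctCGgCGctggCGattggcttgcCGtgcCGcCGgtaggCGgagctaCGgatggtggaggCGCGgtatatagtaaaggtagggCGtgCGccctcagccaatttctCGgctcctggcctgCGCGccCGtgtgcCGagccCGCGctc
Kap: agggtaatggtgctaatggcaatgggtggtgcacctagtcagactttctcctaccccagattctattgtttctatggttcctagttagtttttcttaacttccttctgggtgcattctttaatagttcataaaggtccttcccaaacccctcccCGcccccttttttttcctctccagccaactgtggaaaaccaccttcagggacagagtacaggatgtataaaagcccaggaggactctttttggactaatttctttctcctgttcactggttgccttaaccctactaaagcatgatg

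These 5 windows differed in CG content. The Atp1b1 window held 31 CG dinucleotides and the Aqp3 window 21, while the Aqp2 window held 8, the Slc26a4 window 6 and the Kap window 1. The ratio of observed to expected CG was 0.821 for Atp1b1, 0.712 for Aqp3, 0.361 for Aqp2, 0.321 for Slc26a4 and 0.0687 for Kap. The TATAAA motif began 20 to 40 bases before the start on the gene's strand in the windows of Aqp3, Slc26a4 and Kap. Both Aqp2 and Slc26a4 thus had few CGs and an open window, and Kap had few CGs and no peak over its window.

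The 3 marker genes were expressed in every vehicle library. Aqp2 had 20212, 21874, 20524 and 18074 TPM in vehicle libraries 1 to 4 and ranked 1 of all listed genes. Aqp3 had 3602, 3793, 2900 and 5205 TPM in the same libraries and ranked 13. Slc26a4 had 1067, 1073, 784.1 and 705.2 TPM and ranked 144. The ranges of the 3 genes over libraries did not overlap.

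**Figure D1:**
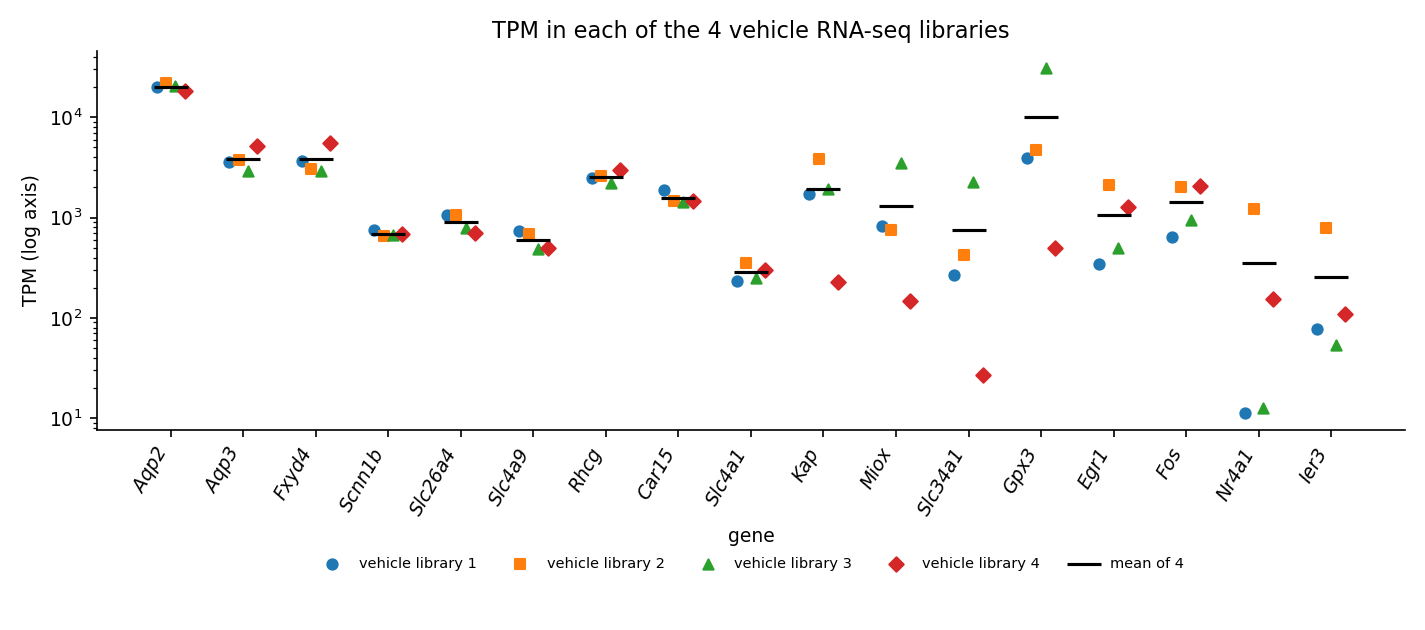
TPM (log axis) of 17 genes in each of the 4 vehicle RNA-seq libraries, with a marker shape per library and a bar at the mean. The collecting duct genes at the left lie close together across libraries, while Kap, Miox, Slc34a1 and Gpx3 are lowest in library 4, and Egr1, Fos, Nr4a1 and Ier3 are higher in libraries 2 and 4 than in libraries 1 and 3.

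Around these genes the open chromatin took 3 forms. Aqp2 had a promoter-TSS peak of log2 signal 9.06 at chr15:99578305-99579420, 1116 bases wide, and 11 distal peaks, of which 2 reached a log2 signal of 6. The strongest of these lay between genes at chr15:99573342-99574155 with a log2 signal of 7.57, and the next at chr15:99560995-99562092 with 6.99, both upstream of the start. Aqp3 had a promoter-TSS peak of 9.33 at chr4:41097829-41098868 and 16 distal peaks, 6 of them at 6 or more, the strongest in its intron 1 at chr4:41095944-41096571 with 8.44. No promoter-TSS peak was named for Slc26a4. A peak of log2 signal 7.60 at chr12:31558924-31560298 covered its start and was annotated to intron 1, and of its 30 distal peaks 25 were below a log2 signal of 4 and 3 were at 0. Aqp2 and Aqp3 thus had a strong promoter with a few strong distal peaks. Slc26a4 had a less strong peak over its start, counted among the distal ones, and many weak distal peaks. Slc26a4 is also longer, at 40242 bp against 5490 bp for Aqp2 and 5460 bp for Aqp3, and 23 of its 30 distal peaks were in introns. The signal is a mean over all cells of a duct, of which type B cells are a part.

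Over all listed genes, promoter signal hardly followed RNA level. Genes were ranked by mean vehicle TPM into 5 classes of equal size, with a median TPM of 310 in the highest class and 27.4 in the lowest class. A promoter-TSS peak was named for 77.2% of the highest TPM class (769 of 996 genes) and 72.2% of the lowest TPM class (719 of 996 genes). Among genes with such a peak, the median log2 signal of the strongest was 8.09 in the highest TPM class and 7.98 in the lowest TPM class. This difference of 0.11 had an SD of 0.066 over rankings by each of the 4 libraries alone, which gave 0.089 to 0.23. Spearman's rank correlation across genes between mean TPM and promoter signal was 0.03 over 3743 genes, a description only, since genes share libraries and are not independent replicates.

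Ranked by promoter signal instead, genes had similar RNA levels in each class. With genes split by promoter signal into 4 classes of equal size, those of the strongest class had a median of 74.8 TPM and those of the weakest class 70.0 TPM, although the median promoter signal was 9.36 in the strongest and 2.85 in the weakest class on the log2 scale. The genes with no promoter-TSS peak had a median of 63.3 TPM. By peaks of any class over the promoter window the span was narrower. The strongest of 4 classes of window signal had a median signal of 9.52 and 78.0 TPM, and the weakest a median signal of 7.33 and 67.8 TPM.

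**Figure D2:**
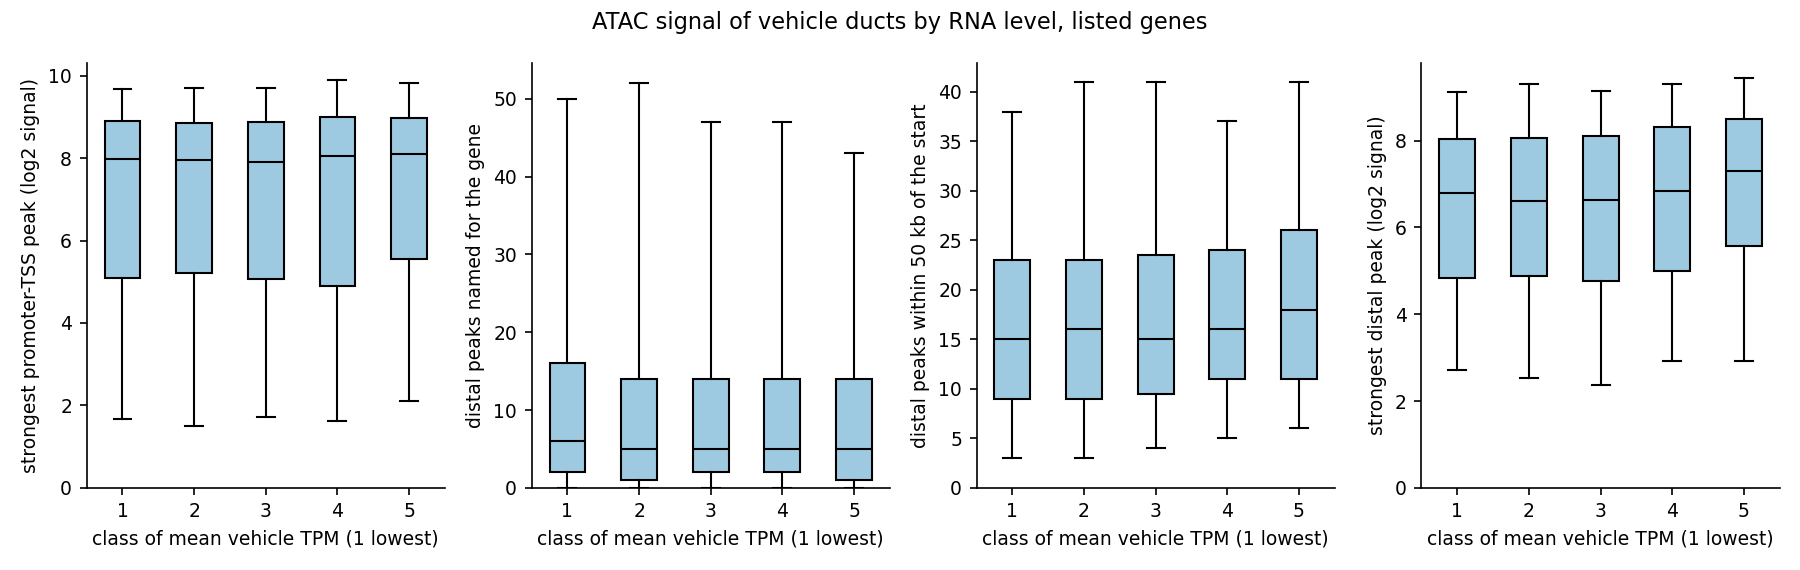
Box plots by class of mean vehicle TPM (1 lowest, 5 highest, 995 or 996 genes each): log2 signal of the strongest promoter-TSS peak, number of distal peaks named for the gene, number of distal peaks of any name within 50 kb of the start, and log2 signal of the strongest distal peak. Genes without a value are left out, so the classes hold 719 to 770 genes for promoters, 792 to 832 within 50 kb and 841 to 852 for the strongest distal peak. Boxes are quartiles with the median and whiskers the 5th and 95th percentiles over genes. Promoter medians lie between 7.90 and 8.09, and the strongest distal peak has a median of 7.30 in class 5, above the other classes.

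The larger contrast was between listed and unlisted genes. A promoter-TSS peak was named for 75.6% of the 4900 listed protein-coding genes and for 45.1% of 16731 protein-coding RefSeq genes that the vehicle table did not list. The median log2 signal of the strongest promoter-TSS peak was 7.99 in listed and 6.25 in unlisted genes, a difference of 1.74. A peak of any class and name overlapped a promoter window in 96.1% of the listed genes with a window and 54.6% of the unlisted ones, with median signals of 8.63 and 7.89. Strongest distal peaks had medians of 6.85 in listed and 5.61 in unlisted genes, and the median number of distal peaks was 5 in listed and 3 in unlisted genes. Median gene length was 17633 bp in listed and 17237 bp in unlisted genes.

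A second RNA table of the series, normalised separately, covers genes below the 10 TPM limit. It holds WT units whose labels conflict on the treatment given, and its mean TPM had a rank correlation of 0.906 with the vehicle mean over 4899 shared genes. By rising TPM in that table, the share of genes with a peak over a promoter window was 13.3% below 0.1 TPM, 45.1% between 0.1 and 1 TPM, 84.8% between 1 and 10 TPM, 95.8% between 10 and 100 TPM, 96.0% between 100 and 1000 TPM and 94.4% from 1000 TPM. The median signal of those windows over the same bins was 4.33, 5.56, 7.92, 8.59, 8.68 and 8.89. Most of the increase lay below 10 TPM, and above 10 TPM the share was level.

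**Figure D3:**
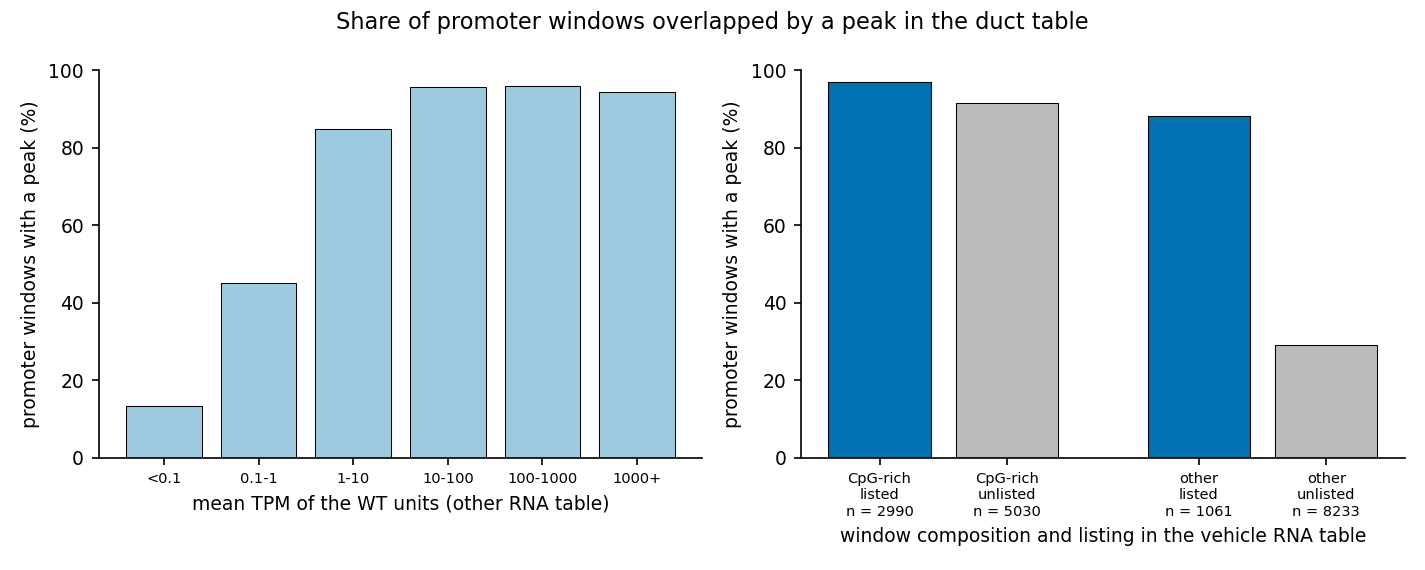
Share of promoter windows overlapped by a peak (percent, bars from 0). Left, protein-coding genes by mean TPM of the WT units of the other RNA table, low to high, from 13.3% to 95.8% over the first 4 bins. Right, the first-listed window of each gene by CG composition, listed genes beside unlisted ones: the shares are 97.1% and 91.7% for CpG-rich windows, and 88.1% and 29.1% for other windows.

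Window composition went with this contrast. A window was taken as CpG-rich with a GC content of 50% or more and an observed to expected CG ratio of 0.6 or more, using the first-listed window of each gene. CpG-rich windows made up 73.8% of 4051 listed genes and 37.9% of 13263 unlisted genes. Among CpG-rich windows, a peak lay over 97.1% in listed and 91.7% in unlisted genes. Among the other windows, a peak lay over 88.1% in listed and 29.1% in unlisted genes. The gap between listed and unlisted genes was thus wider among windows with few CGs. With TPM ranked anew into 5 classes within each kind of window, the median window signal of CpG-rich listed genes was 8.79 in the highest class (598 genes) and 8.65 in the lowest (598 genes), and that of the other listed genes 8.34 in the highest (212 genes) and 8.27 in the lowest (213 genes).

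Stronger promoters were richer in GC. With listed windows split by signal into 4 classes of equal size, 82.7% of the strongest class were CpG-rich, against 61.7% of the weakest class and 41.1% of 214 windows with no peak. Short motifs were counted on both strands, where a match is only a string of letters. The GC box GGGCGG was in 78.7% of the strongest and 51.2% of the weakest class, in 66.8% of listed, 40.8% of unlisted and 46.9% of all protein-coding windows. CCAAT was in 51.2% of the strongest and 32.2% of the weakest class, and in 39.4% of all windows. The ETS core TTCCGG ran the other way between these classes, at 27.6% of the strongest and 36.9% of the weakest, and was in 33.1% of listed and 15.1% of unlisted windows. TATAAA was in 7.33% of listed and 15.3% of unlisted windows. The cAMP response element TGACGTCA was in 3.68% of listed and 1.98% of unlisted windows, and ACTACAA in 4.67% and 3.66%. The GC box, the ETS core and the cAMP response element each contain a CG, so their shares are not independent of the CpG classes.

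Genes without a promoter-TSS peak by name were mostly open at their start. They numbered 1236 of 4979 listed genes, and 963 of them had a RefSeq window. A peak overlapped 827 of these windows (85.9%), with a median log2 signal of 8.77. For 663 genes that peak carried the gene's own name but another class, which was intron for 286, exon for 172 and 5′ UTR for 155. For 164 genes the peak was named for another gene, since a peak has 1 name only. No peak of any class overlapped the other 136 windows. Counted by windows, the share with a peak was 95.4% in the highest TPM class and 96.1% in the lowest TPM class, so the order of the classes found by name was turned round.

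The most abundant of these genes show how names and positions part. Fth1, the ferritin heavy chain that stores iron, had 4641, 4891, 8189 and 4057 TPM in vehicle libraries 1 to 4 and an intron peak of log2 signal 9.60 over its window. Slc25a5, an ADP/ATP carrier of mitochondria, had 4882, 4392, 3646 and 3528 TPM and an intron peak of 8.82 there. Ndufb8, Atp5g3 and Atp6v1f, of the respiratory chain, ATP synthase and proton pump, had intron peaks of 7.99, 8.27 and 9.75 over their windows. All 5 of these start regions were open, though none counted as promoter-TSS. Chchd10, a mitochondrial protein, had no peak over its window and an intron peak of 9.28. Car2, the cytosolic carbonic anhydrase, had 28 distal peaks with the strongest at 7.59, and Atp5a1, an ATP synthase subunit, had no distal peak; neither had a RefSeq window here.

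Among the genes of highest TPM, promoter signals were spread. Atp5b, an ATP synthase subunit, had 6240, 6027, 7409 and 8124 TPM and a promoter-TSS peak of 9.01, and Aldoa, a glycolytic aldolase, had 4951, 4766, 5134 and 6975 TPM and one of 9.99. Ldhb, a lactate dehydrogenase subunit, had 8658, 7505, 6607 and 7960 TPM with 8.49, and Ftl1, the ferritin light chain, 5006, 4257, 7670 and 3067 TPM with 9.34. Malat1, a nuclear noncoding RNA, had 8140, 9166, 4820 and 15719 TPM with 8.86. In contrast, Gpx3, a secreted glutathione peroxidase known from the proximal tubule, had 3893, 4747, 30995 and 500.6 TPM and a promoter-TSS peak of only 5.28. Its libraries had the same order as the proximal tubule sum, highest in library 3 and lowest in library 4, and the part of proximal tubule RNA in it was not tested. Itm2b and Pdzk1ip1 had promoter-TSS peaks of 4.95 and 5.09 by name, but peaks of 8.90 and 9.38 of another class over their windows.

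**Figure D4:**
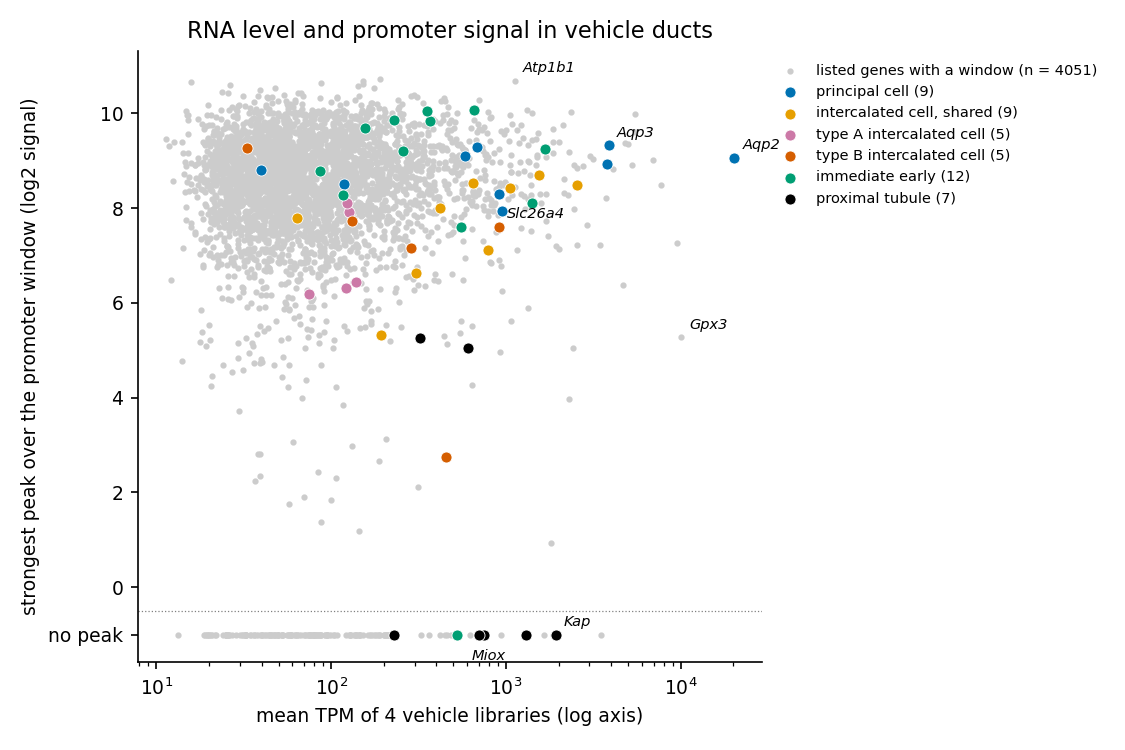
Mean TPM of the 4 vehicle libraries (log axis) against the log2 signal of the strongest peak over the promoter window, for 4051 listed genes (grey) with members of 6 lists in colour. Genes with no peak over the window lie on the strip at the bottom. The cloud is flat across TPM, and 5 of 7 proximal tubule genes (black) sit on the bottom strip at high TPM.

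Most genes with the strongest promoter-TSS peaks were in the upper TPM classes, but not all. Egr1, an immediate early transcription factor, had the highest log2 signal, 10.95, with 343.6, 2128, 492.1 and 1269 TPM in vehicle libraries 1 to 4. Bhlhe40, a transcription factor linked to the circadian clock, had 10.82 with 76.5, 390.4, 121.6 and 179.6 TPM, and Atp1b1 had 10.69 with 919.6, 1082, 1032 and 1465 TPM. Next came Dnpep, an aminopeptidase, with 10.68. Aph1b, a subunit of gamma-secretase, had 10.65 at 16.3, 13.7, 14.6 and 18.5 TPM and ranked 4945 of 4979 by RNA. Abhd11, Tubb4b and Rab40c followed with 10.57, 10.54 and 10.49. Ranks by RNA among these 8 genes ran from 107 for Atp1b1 to 4945. Egr1, Bhlhe40, Atp1b1 and Tubb4b were in the highest TPM class, and Dnpep and Abhd11 in the class below it. Rab40c, with a mean of 39.4 TPM, was in the class above the lowest, and Aph1b in the lowest.

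At the other end, 3 of the 5 weakest promoter-TSS peaks of the highest TPM class stood beside a stronger peak of another class or name over the window. Brk1, a subunit of the WAVE actin regulator, and Rps4l, annotated as a transcribed pseudogene of a ribosomal protein, had promoter-TSS peaks at 0, and Mrps18c, Ube2a and Mrps34 had 0.33, 0.40 and 0.51. Over the windows of Brk1 and Ube2a lay intron peaks of 7.76 and 8.05, and over that of Mrps18c lay a promoter-TSS peak of 7.96 named for Helq. Rps4l and Mrps34 had no window here.

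The number of distal peaks followed gene length more than RNA level. The highest TPM class had a mean of 11.3 distal peaks per gene and the lowest TPM class 13.1, a difference of -1.80 with an SD of 0.94 over rankings by single libraries. The median length was 10166 bp in the highest TPM class and 24274 bp in the lowest TPM class, and across genes the rank correlation was 0.533 between length and number of distal peaks and -0.248 between TPM and length. Within 5 classes of gene length the sign turned, with the genes of highest TPM ahead by a mean of 3.91 peaks and a rank correlation between 0.089 and 0.183 in each class. Counting every distal peak within 50 kb of the start, whatever its name, gave 19.6 in the highest TPM class and 17.6 in the lowest TPM class, a difference of 1.90. With only peaks at a log2 signal of 4 or more, by name, the difference was 0.60. The order of the classes in number thus depends on how distal peaks are assigned and on whether weak ones are counted.

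The strongest distal peak was stronger in the highest TPM class under each of these ways of counting. Its median log2 signal was 7.30 in the highest TPM class and 6.79 in the lowest TPM class, a difference of 0.51 with an SD of 0.26 over single-library rankings, which gave 0.22 to 0.85. The classes below the highest lay between 6.61 and 6.85. The rank correlation across 4233 genes was 0.088. Within 50 kb of the start, for peaks of any name, the medians were 8.13 in the highest TPM class and 7.61 in the lowest TPM class. Such peaks can lie over the start of a neighbouring gene. Rassf7, Hras and Rnh1 all had 10.61 as their strongest, the signal of the peak over the Rassf7 window. Many of the strongest distal peaks by name lay at the gene's own start. Of 3436 genes with a RefSeq start and a distal peak, 581 had their strongest over the start, and 1395 (40.6%) within 3 kb of it. Peaks 3 kb or more from every RefSeq start of the gene they are named for were then taken alone. The medians of the strongest were 6.39 in the highest TPM class and 5.94 in the lowest TPM class. Such peaks can still lie over the start of another gene.

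Genes with the most distal peaks were long regulators at modest RNA levels. Mecom, a zinc finger transcription factor, had 274 distal peaks with 74.7, 84.5, 46.7 and 58.3 TPM in vehicle libraries 1 to 4. Sox6, a transcription factor, and Bmpr1b, a BMP receptor, had 225 each, Esrrg, an orphan nuclear receptor, had 187, and Nedd4l, a ubiquitin ligase acting on the epithelial sodium channel, had 178. Ppargc1a, a coactivator of mitochondrial genes, had 174, Rbms3 had 172 and Phactr1 had 169. Their gene lengths ran from 332451 bp for Bmpr1b to 1057168 bp for Rbms3. By TPM rank Nedd4l was the highest of these 8 genes at 928, with 221.0, 200.5, 182.8 and 133.9 TPM.

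The strongest peaks in the distal class often marked a start. Rassf7, Hbp1, Ube2g1, Eif4a1 and Idh1 had intron peaks of 10.61, 10.31, 10.14, 10.10 and 10.09 over their own windows. The highest was the peak of 10.76 named for Rplp0, a ribosomal stalk protein, at chr5:115542686-115544913, which lay outside its window, where another intron peak had 8.99. The peak of 10.76 also lay outside the Rplp0 gene, at chr5:115559467-115563729. It was annotated to intron 1 of a transcript with 10 introns, while the 8.99 peak was in intron 1 of a transcript with 6. The name Rplp0 thus does not place the peak of 10.76 in that gene. Irf2bp2, a transcriptional corepressor, had an intergenic peak of 10.25 at chr8:126594322-126595823. This peak began just past the end of its promoter-TSS peak of 7.90 at chr8:126593872-126594269, so it lay beside the start and not far from it. Thra, a thyroid hormone receptor, had an intron peak of 10.13 at chr11:98750262-98751832 and a promoter-TSS peak of 8.03.

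Principal cell genes combined strong promoters with strong distal peaks. Of 13 such genes 12 were listed, all with a promoter-TSS peak, with a median log2 signal of 8.72 against 7.99 over all listed genes. Their median number of distal peaks was 26.5 against 5, and their strongest distal peak had a median of 8.55 against 6.85. Across listed genes the number of distal peaks and the strongest of them had a rank correlation of 0.504, so they are not separate traits. At 3 kb or more from the gene's own starts, 8 of the 9 genes with a window reached a log2 signal of 7. The share over all listed genes with a window was 25.2%. Median gene length was 17529 bp, against 17286 bp over all listed genes. Whether gene length bears on the number of distal peaks in this list was not tested.

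Within the list, the sodium channel subunits had strong promoters and many distal peaks. Scnn1b, a subunit of the epithelial sodium channel, had 748.1, 653.1, 663.2 and 680.3 TPM, a promoter-TSS peak of 9.29 and 47 distal peaks, the strongest at 9.84. Scnn1g, another subunit, had 802.2, 660.5, 524.9 and 358.3 TPM, a promoter-TSS peak of 9.09 and 37 distal peaks, the strongest at 8.13. Fxyd4, a regulator of the sodium pump, had 3653, 3080, 2928 and 5556 TPM with 8.92 at the promoter and 8.89 at the strongest distal peak. Avpr2, the V2 vasopressin receptor, had 1004, 769.0, 864.1 and 1178 TPM, a promoter-TSS peak of 7.95 and only 3 distal peaks, the strongest at 6.35. Hsd11b2, which inactivates glucocorticoids, had a promoter-TSS peak of 5.72 and a distal peak of 9.14. Kcnj1, the secretory potassium channel, had 1076, 923.7, 788.6 and 841.4 TPM with 8.31 at the promoter and 8.60 distally. Gata3, a transcription factor at 107.5, 118.9, 88.8 and 155.5 TPM, had the most distal peaks of the list, 55. Avpr2 stood apart with fewest.

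Genes shared by intercalated cells had weaker promoters and as many distal peaks. All 12 were listed, and 9 had a promoter-TSS peak with a median log2 signal of 7.33. All 9 genes with a window had a peak over it, with a median of 8.01 against 8.63 over all listed genes. Their median number of distal peaks was 27.5 and their median strongest distal peak 8.36. At 3 kb or more from the gene's own starts, however, the median was 6.42 and 4 of 9 reached 7. Rhcg, an ammonia channel, had 2494, 2604, 2190 and 2970 TPM, a promoter-TSS peak of 8.49 and a distal peak of 9.18. Foxi1, the transcription factor that specifies intercalated cells, had 486.8, 438.7, 291.6 and 465.2 TPM, an exon peak of 8.01 over its window and a distal peak of 8.48. Car12 and Car15, both carbonic anhydrases, had intron peaks of 8.43 and 8.69 over their windows. Atp6v1b1, a proton pump subunit of these cells, had 558.7, 470.2, 761.0 and 788.5 TPM, a promoter-TSS peak of 8.52 and a distal peak of 9.92.

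Type A and type B genes had low promoter medians at unequal RNA levels. Of 7 type A genes 6 were listed, with a median of 125 TPM, and 4 of them had a promoter-TSS peak with a median of 6.25. All 8 type B genes were listed, with a median of 371 TPM, and 5 of them had a promoter-TSS peak with a median of 7.16. Of genes with a window, 4 of 5 type A and 1 of 5 type B genes reached a log2 signal of 7. This was at 3 kb or more from the gene's own starts. Slc4a1, which exchanges chloride and bicarbonate at the basolateral side of type A cells, had 233.0, 350.0, 251.9 and 300.8 TPM, no promoter-TSS peak and a strongest distal peak of 6.47. Aqp6, an intracellular water channel, had 54.8, 76.4, 169.8 and 254.3 TPM and a distal peak of 8.22, and Kit, a receptor kinase, had 122.2, 133.2, 124.2 and 124.0 TPM and 79 distal peaks. Oxgr1, an oxoglutarate receptor that has also been described in type B cells, had a promoter-TSS peak of 6.32 and a distal peak of 8.06. It was among the 4 type A genes that reached 7, so those counts depend on the list it is put in. Slc4a9, an anion exchanger of type B cells, had 737.3, 692.0, 485.7 and 503.1 TPM, a promoter-TSS peak of 7.86 and a distal peak of 8.12. Insrr, an alkali-sensing receptor, had 180.5, 151.7, 128.3 and 138.0 TPM with 7.00 and 7.69. With 6 and 8 genes, these medians describe the lists only, and the signal is a mean over all cells of a duct.

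Proximal tubule genes had high RNA and little open chromatin. The 8 listed genes had a median of 727 TPM, above the 310 of the highest TPM class. A promoter-TSS peak was named for 2 of them, and a peak overlapped 2 of 7 windows, against 96.1% over all listed genes with a window. Kap had 1734, 3797, 1924 and 228.4 TPM in vehicle libraries 1 to 4. Miox, an inositol oxygenase, had 817.6, 748.9, 3481 and 148.5 TPM, and Slc34a1, the apical phosphate transporter, 267.2, 426.5, 2286 and 27.2 TPM. None of these 3 had a promoter-TSS peak, and for Miox no distal peak was named. Gatm, of creatine synthesis, had a promoter-TSS peak of 5.27, and Fbp1, of gluconeogenesis, a 5′ UTR peak of 5.04 over its window. Pck1, also of gluconeogenesis, had a distal peak of 8.11. Of the 8 listed genes, only Pck1 had a distal peak at a log2 signal of 7 or more. Whether the ducts of the RNA-seq and ATAC-seq libraries held unequal shares of proximal tubule was not tested.

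**Figure D5:**
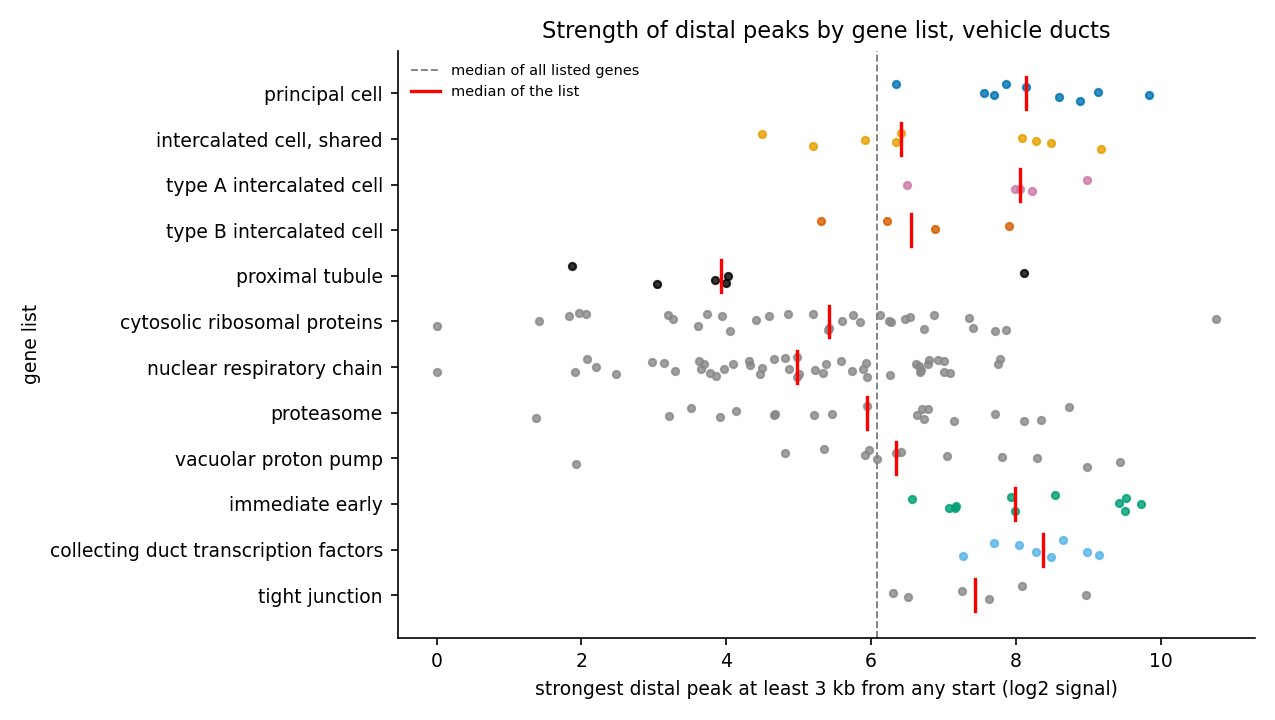
Log2 signal of the strongest distal peak at least 3 kb from every RefSeq start of the gene it is named for. Points are the listed genes with a window in 12 lists. The red bar is the list median and the dashed line the median of all listed genes, 6.09. The medians of the principal cell, type A, immediate early and transcription factor lists lie to the right of the dashed line, and those of the respiratory chain, ribosomal and proximal tubule lists to its left.

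Housekeeping genes were open at the promoter, and few distal peaks carried their names. The 89 listed genes of the nuclear respiratory chain had a median of 916 TPM, a median promoter signal of 8.24 and a median of 3 distal peaks. The 78 cytosolic ribosomal protein genes had 127 TPM, 7.84 and 2 distal peaks, and the 36 proteasome genes 169 TPM, 7.99 and 2 distal peaks by the same measures. These genes are short, with a median length of 7177 bp for the respiratory chain, 3152 bp for the ribosomal and 12362 bp for the proteasome list, against 17286 bp over all listed genes. Within 50 kb of the start, counting peaks of any name, the medians were 14, 16 and 9 distal peaks in the same lists, against 16 over all listed genes, so the ribosomal list was level with all genes by this count. In the same lists 5 of 74, 5 of 57 and 5 of 30 genes reached a log2 signal of 7. These counts took peaks 3 kb or more from the gene's own starts. Rplp0 was among them through its peak of 10.76, which lay outside that gene. In sequence, 79.7% of the respiratory chain windows and 80.7% of the ribosomal windows were CpG-rich, while 2 of 9 principal cell windows, 3 of 9 shared intercalated windows, 1 of 5 type A windows, 0 of 5 type B windows and 1 of 7 proximal tubule windows were. Cox6a1, a cytochrome oxidase subunit, had 3895, 3707, 3864 and 3523 TPM, a promoter-TSS peak of 8.22 and 2 distal peaks. Rps14, a small-subunit ribosomal protein, had 627.4, 572.0, 469.4 and 726.1 TPM with 8.43 at the promoter and 9 distal peaks. Of these lists, 1 ribosomal and 1 respiratory chain member, Rps4l and Ndufa12-ps, are annotated as pseudogenes. Ribosomal genes have many processed copies, so their TPM and peaks are uncertain.

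The vacuolar proton pump joined both patterns. Its 22 listed genes had a median of 406 TPM, a promoter median of 7.41 and a median of 8.5 distal peaks, and 16 of 16 windows had a peak. Atp6v0b, a subunit of the membrane sector made in most cells, had 2196, 1957, 1985 and 1937 TPM, a promoter-TSS peak of 9.39 and no distal peak. Atp6v1g3, an intercalated cell subunit, had 901.8, 774.9, 585.9 and 876.9 TPM, an intron peak of 7.12 over its window and 53 distal peaks. Atp6v0d2, likewise of intercalated cells, had 37 distal peaks, with the strongest at 5.23.

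Transcription factors of the duct were open both at the start and far from it. Of 27 such genes 14 were listed, with a median of 147 TPM, a promoter median of 8.56 and a median of 38 distal peaks. At 3 kb or more from the gene's own starts, 8 of 10 reached a log2 signal of 7. Tfcp2l1, which acts in intercalated cell patterning, had 149.8, 144.7, 103.8 and 213.3 TPM, a promoter-TSS peak of 9.34 and 85 distal peaks, the strongest at 9.15. Nr3c2, the aldosterone receptor, had 35.6, 36.8, 32.4 and 24.2 TPM, a promoter-TSS peak of 9.62 and 127 distal peaks. Its RNA was in the lowest TPM class, while its number of distal peaks was the highest of the list. Hoxd8, a homeobox gene, had 242.8, 246.0, 242.2 and 256.7 TPM, a promoter-TSS peak of 9.96 and only 2 distal peaks.

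Immediate early genes had strong peaks and RNA that differed between libraries. Of 24 such genes 14 were listed, with a promoter median of 9.19 and a strongest distal median of 9.02. At 3 kb or more from the gene's own starts, 10 of 12 genes were at 7 or more. Their summed TPM was 3711, 14279, 4574 and 11044 in vehicle libraries 1 to 4, higher in libraries 2 and 4 than in 1 and 3. Fos, a subunit of the AP-1 factor, had 643.3, 2001, 937.6 and 2076 TPM and a distal peak of 9.73, and Jun, its partner, had 248.5, 547.3, 167.2 and 513.4 TPM with a promoter-TSS peak of 9.83. Nr4a1, an orphan nuclear receptor, had 11.3, 1232, 12.8 and 153.6 TPM and an intron peak of 10.04 over its window. ATAC-seq values per library were not used here, so whether the chromatin differed likewise was not tested. Of 16 tight junction genes 8 were listed, with a promoter median of 9.17. Cldn3 and Cldn8, claudins of the duct, had promoter-TSS peaks of 10.35 and 9.30 at 93.0, 114.1, 135.1 and 89.1 TPM for Cldn3 and 735.5, 867.0, 509.3 and 1206 TPM for Cldn8.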

How the data were processed

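RNA-seq (SMARTer V4 and Nextera XT, per the labels' protocols) was deposited as TPM by the authors, for 4 vehicle libraries. STAR and RSEM are named in the submitters' processing notes. Per the file headers, only genes with a lowest TPM above 10 over 8 libraries are listed. TPM keeps no depth, so no counting interval was given. ATAC-seq was deposited as the log2 mean normalised signal of the vehicle group (read from the column marked NT), with a floor at 0, in which 25627 peaks lie. Peak positions on mm10, classes and gene names were deposited with it. DiffBind, MACS2, Bowtie2 and cutadapt 3.4 are among the tools in the submitters' processing notes, while settings, pooling and depth are not given in the sources used here. Mitochondrial DNA had been depleted from the ATAC-seq libraries, per the labels' protocols. A second table of TPM, deposited by the authors for WT units, served as an alternative.

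Symbols were matched to RefSeq (GRCm38.p6) through its synonyms, and 56 of 5035 genes were repeated or not placed. Promoter windows matched 4051 listed genes (81.4%). Promoter signal is the strongest promoter-TSS peak of a gene, and distal peaks are those annotated intron or intergenic. Distal peaks were counted again at 3 kb or more from every start of their named gene, and within 50 kb under any name. Either count can hold peaks over the start of another gene. All values are descriptions with no test. The spread is the SD over the 4 vehicle libraries each used alone for the ranking, or the 4 TPM values themselves. Genes were named by rule: the 3 markers, the 10 highest by TPM, the 8 highest without a promoter-TSS peak, the 8 with the strongest promoter, with the most distal peaks and with the strongest distal peak, the 5 weakest promoters of the highest TPM class, and up to 6 members per list by TPM. Predicted models were counted, not named, and some genes are not reported here. Scnn1b, Scnn1g, Gata3, Atp6v1b1, Atp6v0d2, Gatm, Pck1, Jun, Nr4a1, Ier3, Dmrt2, Hoxb6, Tfcp2l1, Nr3c2 and the genes named among those not listed were outside this rule and chosen after their values were seen. The genes and lists were chosen with earlier results of these data known. The ranking code was tested on simulated data with known slopes. Python 3.11.15, pandas 2.3.3, numpy 2.4.6 and matplotlib 3.10.9 were used.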

Additional observations from a re-analysis of the deposited data

Results flagged for a closer look

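The 119 genes examined were those named by rule and the listed members of 8 lists, which were chosen with earlier results known. For 12 of them, the gap between 1 vehicle library and the nearest other exceeded Dixon's 95% critical value as a share of the range of the 4 TPM values. Chance alone passes this limit in about 1 of 20 genes, or 6 of 119. The libraries set apart were not the same throughout: library 4 was highest for 4 genes, library 2 was highest for 3, library 3 was highest for 2 and lowest for 1, and library 1 was highest for 1 and lowest for 1. In library 4, Aldoa had 6975 TPM, against 4766 to 5134 in the others, Cldn7 had 811.1, against 338.0 to 410.5, Phactr1 had 91.7, against 56.1 to 60.7, and Ube2a had 341.3, against 146.1 to 154.4. In library 2, Nr4a1 had 1232 TPM, against 11.3 to 153.6 in the others, Ier3 had 787.2, against 53.3 to 108.7, and Dmrt2 had 121.3, against 42.0 to 45.7. In library 3, Gpx3 had 30995 TPM, against 500.6 to 4747 in the others, Dnpep had 264.9, against 110.9 to 117.3, and Atp6v0d2 had 259.7, against 446.1 to 452.9. In library 1, Car15 had 1863 TPM, against 1430 to 1471 in the others, and Hoxb6 had 96.5, against 128.3 to 133.6.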

How the results depend on the processing

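Of 109 alternatives, 68 moved a value by less than the SD over single-library rankings and 37 moved it by more, while 4, of the listed minus unlisted difference, have no such SD; in 9 the sign turned. The windows, length classes and removal of the proximal tubule list were chosen after seeing the data. The promoter difference between the highest and lowest TPM class, 0.11, became 0.012 with peaks at a log2 signal of 4 or more, 0.31 per kb of peak and 1.96 with the RNA of the WT units, and it was 0.042 to 0.189 without 1 library. The share with a promoter-TSS peak, 5.02 points higher in the highest TPM class, was 4.32 to 6.23 points without 1 library, 6.02 by the library median, 5.42 by mean log2(TPM + 1), 4.54 at 20 TPM or more, 6.23 with peaks at 4 or more, 30.7 with the WT units, 3.06 for genes with a window, 5.62 over length classes, 5.41 without proximal tubule genes and -0.75 by peaks over the window. The distal number difference, -1.80, was 0.60 with peaks at 4 or more, -2.91 at 3 kb or more, 1.90 within 50 kb, 5.71 with the WT units and 3.91 over length classes. Its rank correlation with TPM, -0.012, was 0.041, -0.047, 0.085, 0.155 and 0.14 under the same settings. The strongest distal difference, 0.51, was 1.10 with the WT units and 0.82 over length classes. Its rank correlation with TPM, 0.088, was 0.127 per kb, 0.049 with every peak outside promoter-TSS, 0.125 within 50 kb, 0.153 with the WT units and 0.132 over length classes. For promoter signal, that correlation, 0.03, was 0.078 per kb, 0.166 with the WT units and 0.043 over windows. The listed minus unlisted promoter difference, 1.74, was 0.71 with peaks at 4 or more, 1.19 per kb, 1.72 for summed signal and 0.75 over windows. The cause of these shifts was not tested, except that the WT units and windows take in other genes and peaks. No paired analysis was possible because no result comes from a test. The ATAC-seq values are group means of unknown depth, so no error could be given for them.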

Other observations

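Regulators missing from the vehicle RNA table differed in promoter-TSS signal by name. Of 17 circadian clock genes 3 were listed, Bhlhe40, Nr1d1 and Tef. Of the 14 unlisted ones 11 had a promoter-TSS peak above the median of 7.99 of listed genes and 3 had one below it. Their promoter-TSS peaks had a log2 signal of 9.87 for Nr1d2, a repressor of the clock, 9.60 for Per2 and 9.57 for Per3, both period genes, 9.55 for Clock and 9.17 for Cry1. Arntl, the partner of Clock, had a promoter-TSS peak of 3.02 by name and a peak of 9.85 over its window. Of 13 unlisted duct transcription factors 4 lay above that median, 8 below it and 1, Klf5, had no promoter-TSS peak. The 4 were Pax2, which acts in kidney development, with 9.82, Grhl2 and Grhl1, regulators of epithelial barriers, with 9.38 and 9.33, and Tfap2a with 8.81. The lowest by name was Esrrb, an orphan nuclear receptor, with 0.73. Over the promoter windows some of these values differed. Emx1 had 2.80 by name and a peak of 9.18 over its window, Hoxd10 had 1.89 and 8.01, and Esrrb 0.73 and 5.55. Hoxb8 had 5.07 by name and no peak over its window. Part of the difference between these groups thus depends on how peaks were named. Not being listed says only that the TPM did not exceed 10 in at least 1 of 8 libraries.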
